A study of Mus musculus with 8 samples.

Results

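The ADAM, ADAMTS and ADAMTSL genes of the mouse were taken by symbol, as each feature named Adam, Adamts or Adamtsl followed by a number, which gave 51 of the 32285 features counted. Transcripts were counted in nuclei of the petrous temporal bone (PTB), the dense part of the skull base that holds the inner ear, and of the paraflocculus and flocculus (PF/F), the cerebellar lobules that lie in a pocket of that bone. All mice came from stock backcrossed onto C57BL/6J, were at postnatal day 5.5 (P5.5), and were either WT or Tbx1+/- littermates, which lack 1 copy of the T-box factor gene Tbx1 in bone and brain alike. Each tissue had 2 WT and 2 Tbx1+/- libraries, each from a pool of 5 mice. Libraries with the same replicate number were taken as the same batch of animals. The 8 libraries, not mice or nuclei, were the replicates. The paper isolated PTB and PF/F from P5.5 mice, so the libraries of a genotype and batch may come from the same 5 mice in both tissues. No fit paired the tissues by pool.

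ADAMs are membrane proteins with a disintegrin and a metalloproteinase domain. Those with an active protease domain release the outer part of other membrane proteins, such as growth factors and Notch receptors, and those without one serve as receptors or adhesion proteins. ADAMTS enzymes are secreted, carry thrombospondin repeats and cut extracellular matrix: procollagens, the hyaluronan-binding proteoglycans called hyalectans, and matrix glycoproteins. ADAMTSL proteins share the repeats but have no protease domain. Both matrix and shedding enzymes are known from growing cartilage and bone, and Adam11, Adam22 and Adam23 are known from brain, where they bind the secreted LGI proteins.

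Levels are given in counts per 1000000 UMIs (CPM), each UMI (unique molecular identifier) standing for 1 captured transcript, summed over the nuclei of a type within a library. The PTB libraries held 66835028 to 88677309 UMIs and the PF/F libraries 44713226 to 60627200 UMIs, with 31 members reaching a mean of 20 CPM in at least 1 annotated type (60 CPM in types with fewer than 50 nuclei in a library). Tbx1 itself was at 39.3 and 46.3 CPM in the WT PTB libraries and at 27.6 and 40.1 CPM in the Tbx1+/- PTB libraries of batches 1 and 2, lower in Tbx1+/- within each batch but with overlapping ranges, and at 0.156 to 0.693 CPM in PF/F. Pairs of libraries shared 35 to 94 barcodes, at most 0.652% of the smaller library. Type names are the authors', and several types also held markers of other cells. Mmp9, an osteoclast marker, was at 1410 CPM in the connective tissue type CT4 and at 1120 CPM in osteoclasts, though Acp5 and Ctsk were highest in osteoclasts. Col10a1, a hypertrophic cartilage collagen, was at 192 CPM in matured chondrocytes and at 42.4 CPM in the type named hypertrophic chondrocyte/osteoblasts, and matured chondrocytes also held the most Hba-a1 of the bone types (876 CPM), with 496 CPM of Ctsk and 308 CPM of Acp5. The osteoblast factor gene Runx2 was highest in CP1 (8810 CPM). Alpl was at 538 CPM there, second to osteoblasts at 644 CPM. Bglap, Ibsp and Sp7 were also highest in osteoblasts, with matured osteoblasts/osteocytes second. The endothelial genes Cdh5 (126 CPM) and Flt1 (69.1 CPM) were highest of the bone types in CT2, but Pecam1 was highest in CP5 (24.3 CPM). PF/F endothelial nuclei, which carried Flt1 and Pecam1, also held 3190 CPM of the haemoglobin gene Hbb-bs. No marker list was set for the type labelled RL.early (rhombic lip). RL.early held the astroglial gene Aqp4 (302 CPM, second to astroglia) and Sox9 (71.8 CPM, against 69.9 CPM in astroglia). It also held the microglial gene Cx3cr1 (151 CPM, second to immune nuclei), but was not second for the immune genes Ptprc and Csf1r. These were at no more than 5.38 and 10.5 CPM in any annotated PF/F type but immune nuclei. The part of other cells in the levels given for these types was not tested. Types were made by clustering these nuclei, so levels by type are described without a test.

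The procollagen N-proteinases Adamts2, Adamts3 and Adamts14 cut the amino-terminal propeptide off fibrillar procollagens, and the 3 genes differed in where in the bone they were highest. Their upstream sequences are shown because the 3 genes share a role but not a pattern. The 250 bases before each transcription start (RefSeq, GRCm38.p6) are given 5′ to 3′ on the gene's strand, with matches to the GC box GGGCGG, read on both strands, in capitals.
Adamts2 (chr11:50601835-50602084, + strand): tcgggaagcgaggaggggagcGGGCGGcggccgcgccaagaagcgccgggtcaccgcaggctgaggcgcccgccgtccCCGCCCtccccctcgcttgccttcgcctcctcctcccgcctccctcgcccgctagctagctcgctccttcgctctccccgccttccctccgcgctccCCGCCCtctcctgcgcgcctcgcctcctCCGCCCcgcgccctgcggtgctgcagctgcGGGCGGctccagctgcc
Adamts3 (chr5:89883335-89883584, - strand): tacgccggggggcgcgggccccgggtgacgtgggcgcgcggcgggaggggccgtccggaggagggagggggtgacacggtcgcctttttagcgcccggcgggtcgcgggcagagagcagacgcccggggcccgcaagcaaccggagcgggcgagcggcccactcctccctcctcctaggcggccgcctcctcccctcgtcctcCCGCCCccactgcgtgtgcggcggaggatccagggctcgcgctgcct
Adamts14 (chr10:61273420-61273669, - strand): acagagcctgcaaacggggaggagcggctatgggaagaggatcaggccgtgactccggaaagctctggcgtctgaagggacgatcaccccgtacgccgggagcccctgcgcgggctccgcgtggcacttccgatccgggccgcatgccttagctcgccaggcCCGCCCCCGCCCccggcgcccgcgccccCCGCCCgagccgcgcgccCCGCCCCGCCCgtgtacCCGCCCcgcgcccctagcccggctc
The GC box occurred 5 times before Adamts2, 1 time before Adamts3 and 6 times before Adamts14, where 2 neighbouring matches share a base, and at least once in 32.7% of all 32851 upstream windows of this length. The motif TGTGGT, the core that RUNX factors bind, was in none of the 3 windows on either strand and in 14.0% of all windows. A match of letters is a description and not a binding site.

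Adamts14 was highest in the most mature bone cells, followed by a connective tissue type. In matured osteoblasts/osteocytes its level was 450.2 CPM in WT and 586.5 CPM in Tbx1+/- of batch 1, and 505.5 and 541.1 CPM in batch 2, a mean of 521 ± 57.6 CPM (SD, n = 4). The next type, the third connective tissue type (CT3), was at 193 ± 24.6 CPM, with no overlap of the libraries, and plain osteoblasts were at only 33.9 ± 5.91 CPM. In no other PTB type did the mean exceed the 44.8 ± 18.6 CPM of CT1.

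Adamts3 had its highest mean in matured chondrocytes, at 214.9 and 263.7 CPM in the batch 1 libraries and at 121.4 and 148.3 CPM in the batch 2 libraries. The mean of 187 ± 64.5 CPM rested on 48 to 254 nuclei per library, and its range overlapped that of osteoblasts, at 117 ± 12.6 CPM. Matured chondrocytes were also the type richest in Col2a1, the type II collagen gene, at 3660 CPM.

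Adamts2 was broad. It was highest in the chondrocyte progenitor type CP5, at 239 ± 26.8 CPM, and lowest in osteoclasts, at 32.4 ± 3.65 CPM, with osteoblasts at 170 ± 2.72 CPM. CP5 exceeded CT2, the next type at 194 ± 15.8 CPM, in 4 of 4 libraries although the ranges overlapped. The type I procollagen genes, substrates of these enzymes, were highest in osteoblasts and matured osteoblasts/osteocytes, Col1a1 with means of 9349 and 9352 CPM.

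**Figure D1:**
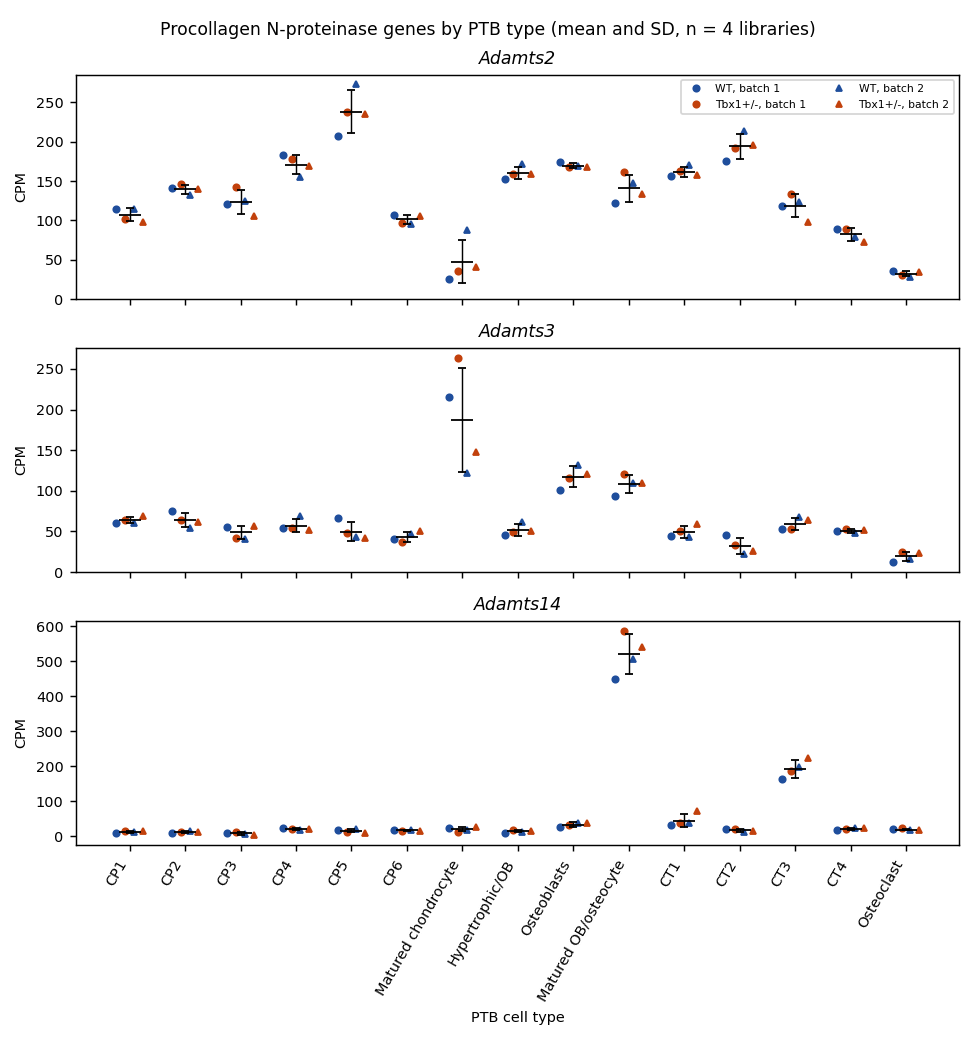
Levels in CPM of Adamts2, Adamts3 and Adamts14 in the 15 annotated PTB types; each point is a library (blue WT, orange Tbx1+/-, circles batch 1, triangles batch 2), and bars give the mean and SD of 4 libraries. Adamts14 stands at 450.2 to 586.5 CPM in matured osteoblasts/osteocytes and at 164.4 to 223.4 CPM in CT3, Adamts3 is highest in matured chondrocytes, and Adamts2 is lowest in osteoclasts and matured chondrocytes.

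In PF/F the trio was placed differently. Adamts3 was at 150 ± 23.8 CPM in Purkinje cells and at 118.5 ± 31.5 CPM in differentiated GABA interneurons, with overlapping ranges, and at 3.95 ± 1.34 CPM in granule neuron progenitors (GNP), its lowest type. Adamts2 reached 98.7 ± 14.4 CPM in differentiated GABA interneurons, while Adamts14 reached no more than 22.2 ± 2.04 CPM, in GNP.

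The hyalectan-cleaving group, whose substrates are the proteoglycans aggrecan, versican, brevican and neurocan, holds Adamts1, Adamts4, Adamts5, Adamts8, Adamts9, Adamts15 and Adamts20. Adamts9 was high throughout the bone. In hypertrophic chondrocyte/osteoblasts it was at 865.7 and 964.5 CPM in WT and at 1033 and 1079 CPM in Tbx1+/-, above CP4 at 534 ± 56.5 CPM in each library, and in every other annotated PTB type it was at least at the 112 CPM of osteoclasts. In PF/F it was highest in meningeal nuclei, at 261 ± 65.9 CPM, and was also found in endothelial nuclei at 154 ± 55.1 CPM and astroglia at 123 ± 17.4 CPM.

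Adamts5 and Adamts1, neighbours on chromosome 16, were both highest in CT2. Adamts5, a main aggrecanase of cartilage, was at 117 ± 11.6 CPM in CT2, at 108.5 ± 7.50 CPM in CP1 and at 105 ± 6.47 CPM in hypertrophic chondrocyte/osteoblasts, levels whose ranges overlapped. Adamts1 was at 125 ± 35.5 CPM in CT2 and at 80.7 ± 10.2 CPM in CT1, and at 31.1 CPM or less elsewhere in bone. Aggrecan (Acan), a substrate, was highest in matured chondrocytes at 1333 ± 345 CPM and versican (Vcan) in CT1 at 1524 ± 274 CPM.

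Adamts20, known for its part in the migration of pigment cells, had its highest brain level in the RL.early type, which held 1669 of its 7057 PF/F UMIs. The 4 RL.early libraries held 533.3, 584.3, 832.5 and 705.7 CPM (WT and Tbx1+/- of batch 1, then of batch 2), a mean of 664 ± 134 CPM. GNP, the next type, was at 46.6 ± 5.77 CPM, so that the RL.early mean was 14.3 times as high and above GNP in 4 of 4 libraries. In bone Adamts20 peaked at 55.5 ± 8.04 CPM in CP2. Adamts15 was highest in CT2 at 27.3 ± 2.41 CPM and, in PF/F, in meningeal nuclei at 31.2 ± 13.8 CPM, while Adamts4 and Adamts8 stayed below 20 CPM in each annotated type.

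Adamts12 and Adamts7 cut COMP, a cartilage matrix protein. Adamts12 held the highest mean of any member and type. CT4 was at 2112 and 2921 CPM in WT and at 2289 and 2476 CPM in Tbx1+/-, and CP4, the next type at 1198 to 1418 CPM, was lower in each library. CT2 at 1158 ± 103 CPM and CP3 at 1081 ± 84.1 CPM followed, and osteoclasts were lowest at 113.1 to 133.8 CPM. In PF/F Adamts12 marked meningeal nuclei, at 1136 ± 282 CPM against 118 ± 21.7 CPM in astroglia and 1.77 ± 0.694 CPM in differentiated granule neurons. The 2 meningeal libraries of batch 1 were at 855.3 and 933.5 CPM and those of batch 2 at 1412 and 1344 CPM. Comp was highest in matured chondrocytes, at 655 ± 238 CPM, and at 34.0 ± 7.29 CPM in CT4. Adamts7 reached 14.0 ± 2.66 CPM in CP5.

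The remaining ADAMTS enzymes include Adamts6, Adamts10 and Adamts17, related to fibrillin microfibrils, and Adamts16, Adamts18 and Adamts19. Adamts6 split between connective tissue and bone-forming cells. CT3 held 1312 to 1725 CPM, a mean of 1524 ± 216 CPM, above matured osteoblasts/osteocytes at 942 ± 158 CPM in each library, and osteoblasts followed at 516 ± 58.2 CPM. In PF/F it was highest in GNP at 524.5 ± 77.4 CPM and then in astroglia at 348.5 ± 60.8 CPM, and differentiated granule neurons, which arise from GNP, were at 122.5 ± 3.91 CPM.

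Adamts18 had the opposite order along that lineage. GNP held 14.2 to 19.3 CPM and differentiated granule neurons 355.6 to 416.9 CPM, so GNP lay lower in every library. Differentiated GABA interneurons were at 320 ± 18.2 CPM. In bone Adamts18 was highest in osteoblasts, at 157.5 ± 20.6 CPM, against 57.2 ± 2.50 CPM in CP1.

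Adamts17 was highest in CP1 at 514 ± 48.6 CPM, 2.10 times the 244 ± 16.9 CPM of osteoblasts, and the ranges did not overlap. Adamts10 ranged over bone from 53.6 CPM in osteoclasts to 232 ± 6.64 CPM in CP3. Adamts19 was highest in glia and progenitors of PF/F, where astroglia held 266 ± 41.2 CPM and GABA interneuron progenitors 168 ± 29.2 CPM, against 23.9 ± 2.68 CPM in differentiated GABA interneurons. Adamts16 was highest in bone in CT1, at 40.1 ± 5.78 CPM, with CT2 at 11.9 ± 8.84 CPM and barcodes without annotation at 17.05 CPM. In PF/F it was at 58.6 ± 5.41 CPM in GABA interneurons and 54.0 ± 12.4 CPM in RL.early, and its pericyte mean of 88.7 ± 80.9 CPM came from 12 to 25 nuclei per library, with 0 CPM in 1 library.

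**Figure D2:**
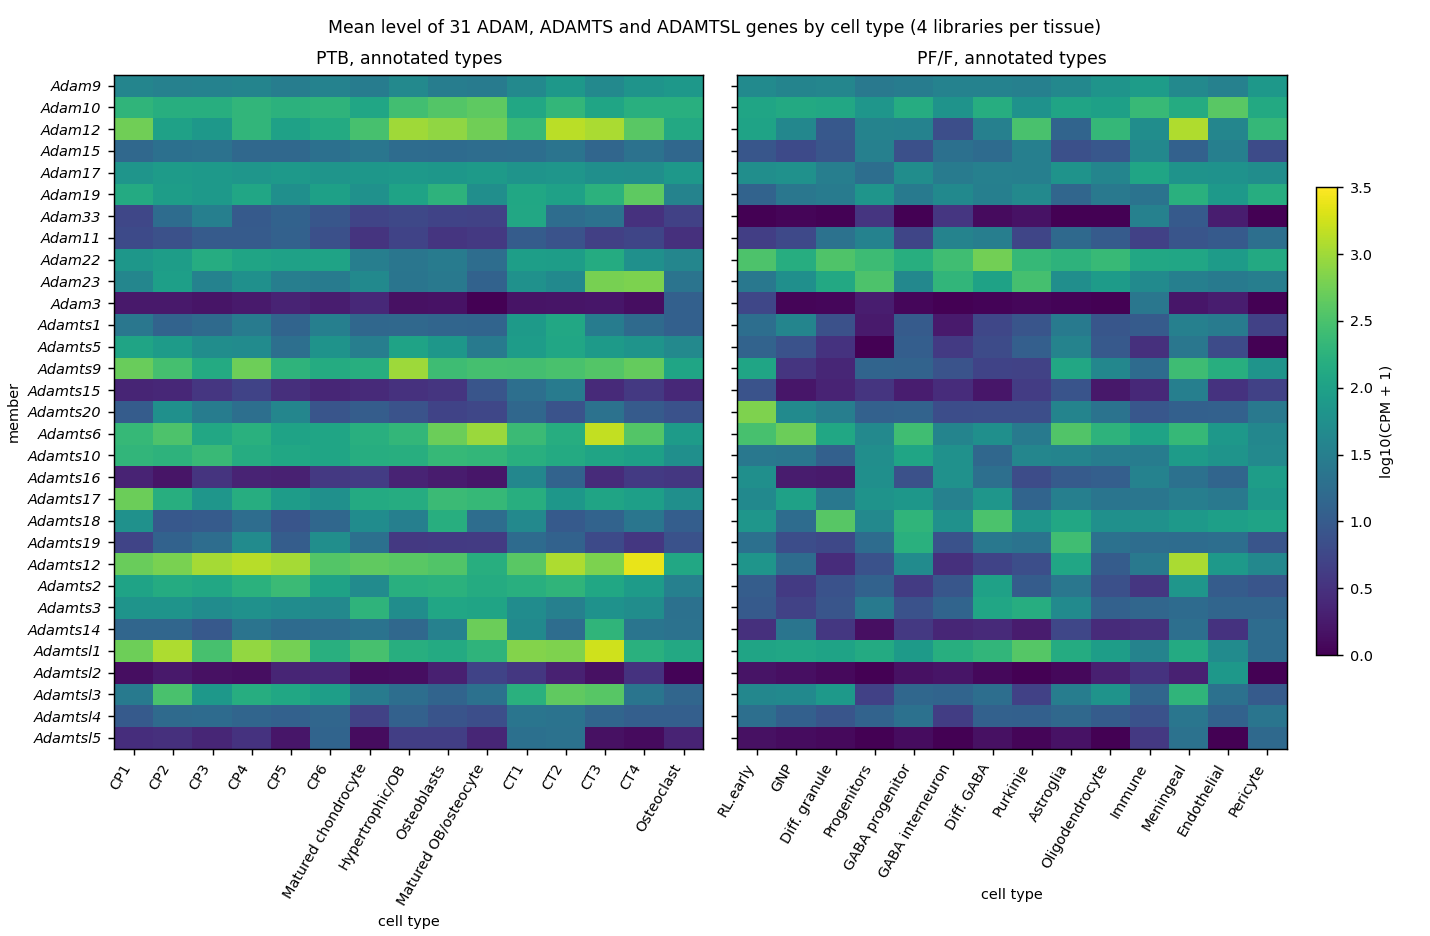
Heat map of the mean level, as log10(CPM + 1) over 4 libraries per tissue, of the 31 members above the level limit (rows, grouped by role) in 15 PTB types and 14 PF/F types (columns). Adamts12 is brightest in CT4 (2449 CPM) and in meningeal nuclei (1136 CPM), Adamts20 stands out in RL.early (664 CPM) and Adam3 is dark outside osteoclasts and immune nuclei.

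Of the ADAMTS-like genes, Adamtsl1 and Adamtsl3 were high in connective tissue. Adamtsl1 was at 1768 ± 147 CPM in CT3, above CP2 at 1179 ± 133 CPM in 4 of 4 libraries, and reached 376 ± 38.1 CPM in Purkinje cells. Adamtsl3 was at 435 ± 49.5 CPM in CT2, 387 ± 49.6 CPM in CT3 and 313 ± 34.2 CPM in CP2, and at 12.4 CPM in its lowest bone type. Adamtsl2 had its highest level in PF/F endothelial nuclei, at 76.5, 56.0, 52.9 and 107 CPM in the 4 libraries against 2.25 ± 1.66 CPM in immune nuclei, the next type. These nuclei are few, so they held 53 of the 217 Adamtsl2 UMIs of PF/F. Barcodes without annotation, which in PF/F are those the paper left out, held 107. The endothelial libraries held 15 to 65 nuclei each, so the floor of 3 counts lay between 10.7 and 45.9 CPM.

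Among the membrane ADAMs with an active protease domain, Adam12, a shedder known from muscle and bone, was at 1393 ± 193 CPM in CT2, at 1137 ± 123 CPM in CT3, at 1017 ± 100 CPM in hypertrophic chondrocyte/osteoblasts and at 834 ± 20.9 CPM in osteoblasts, and only at 72.9 ± 19.1 CPM in CP3. In PF/F meningeal nuclei were at 1204 ± 122 CPM and Purkinje cells, the next type, at 311 ± 31.7 CPM, with no overlap, while GABA interneurons were lowest at 5.99 CPM.

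Adam10 and Adam17, the main sheddases of Notch receptors and of TNF, were detected in all annotated types, in counts from which free RNA was not removed. Adam10 varied 3.73-fold between its highest PTB type, matured osteoblasts/osteocytes at 422 ± 18.6 CPM, and its lowest, CT3 at 78.96 to 130.5 CPM. Adam17 varied 1.56-fold, from 52.9 CPM in CT4 to 82.7 ± 5.22 CPM in CP2. In PF/F Adam10 was highest in endothelial nuclei at 399.5 ± 57.7 CPM, beside Tspan5, which codes for a tetraspanin that binds it and was highest there too at 840 ± 208 CPM. Adam17 was highest in immune nuclei, at 114 ± 12.5 CPM. Tnf and Rhbdf2, which codes for a carrier of Adam17, had only 15 and 18 UMIs in these nuclei, near the floor of 3 counts per library.

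Adam19 was highest in CT4, at 423 ± 56.2 CPM against 185 ± 15.9 CPM in osteoblasts. Adam33, known from mesenchymal cells, was at 108.0, 103.7, 130.5 and 152.9 CPM in CT1 and at 20.5 to 41.6 CPM in CP3, the next type, with no overlap. CT1 made up 64.5%, 56.5%, 31.5% and 15.2% of the connective tissue nuclei in the WT and Tbx1+/- libraries of batch 1 and then of batch 2, and the Adam33 level over all 4 connective tissue types was 71.3, 57.9, 51.2 and 28.8 CPM in the same order. The part of the CT1 share in that level was not tested. Adam9 ranged over bone types from 27.8 CPM in matured osteoblasts/osteocytes to 72.4 CPM in CT2 and 72.3 CPM in osteoclasts. CT2 was above osteoclasts in 1 of 4 libraries. Adam15 ranged from 13.4 CPM in CT3 to 22.4 CPM in matured chondrocytes. Adam8 stayed below 20 CPM throughout.

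Adam28, a lymphocyte-associated ADAM, was nearly absent from annotated nuclei: 1416 of its 1612 PTB UMIs lay in barcodes that the annotation does not name. In these barcodes its level was 17.2 and 9.99 CPM in batch 1 (WT, Tbx1+/-) and 6.24 and 2.42 CPM in batch 2. No immune type beside osteoclasts is named in the PTB annotation.

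Adam11, Adam22 and Adam23 lack protease activity. Adam22, a receptor for LGI1 at synapses, was highest in differentiated GABA interneurons, at 472.5, 527.7, 632.0 and 622.6 CPM. Differentiated granule neurons were at 344 ± 37.4 CPM and their progenitors at 149.5 ± 18.6 CPM. Adam23 had high levels in bone too, where CT4 was at 641 ± 156 CPM and CT3 at 598 ± 30.2 CPM, both above CP2 at 93.5 ± 14.9 CPM in every library, while its highest PF/F types were the small progenitors type at 330 ± 54.8 CPM and Purkinje cells at 289 ± 43.0 CPM. Lgi2, which codes for another LGI ligand, was highest in PTB in CT4, at 81.0 ± 7.56 CPM. Adam11 was at 30.5 ± 4.67 CPM in differentiated GABA interneurons, with overlapping levels in the small GABA interneuron (35.7 ± 5.31 CPM) and progenitors (35.0 ± 14.9 CPM) types.

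The 15 ADAMs best known from testis and sperm were low, and 4 neighbours among them had their highest levels in particular types. Adam32, Adam5, Adam3 and Adam18 lie next to each other on chromosome 8, on the minus strand between bases 24602246 and 24948804 (GRCm38). They lie downstream of Adam9, which is on the same strand and has its 3′ end at base 24949611. In RL.early nuclei Adam5 was at 16.7, 14.3, 20.2 and 22.3 CPM and Adam18 at 14.9, 26.5, 16.9 and 15.3 CPM. Adam32 was at 16.4 ± 5.56 CPM there. Each of these 3 genes was highest in RL.early, though from few transcripts (47, 44 and 43 UMIs in all for Adam5, Adam18 and Adam32), and the floor of 3 counts was 3.52 to 6.11 CPM.

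Adam3 had a different pattern. It was highest in immune nuclei of PF/F, at 30.2, 17.9, 19.4 and 27.6 CPM, and in osteoclasts of PTB, at 6.27, 16.5, 8.52 and 12.5 CPM, the types of each tissue that carried the leukocyte genes Ptprc and Csf1r. RL.early, its next PF/F type, was at 4.56 ± 2.28 CPM. The immune level rested on 32 UMIs in all, with a floor of 6.36 to 13.4 CPM. Adam9, next to the group, was at 85.0 ± 5.20 CPM in immune nuclei. Reads that run on from 1 gene into the next on the same strand cannot be told apart from separate transcripts in these counts.

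**Figure D3:**
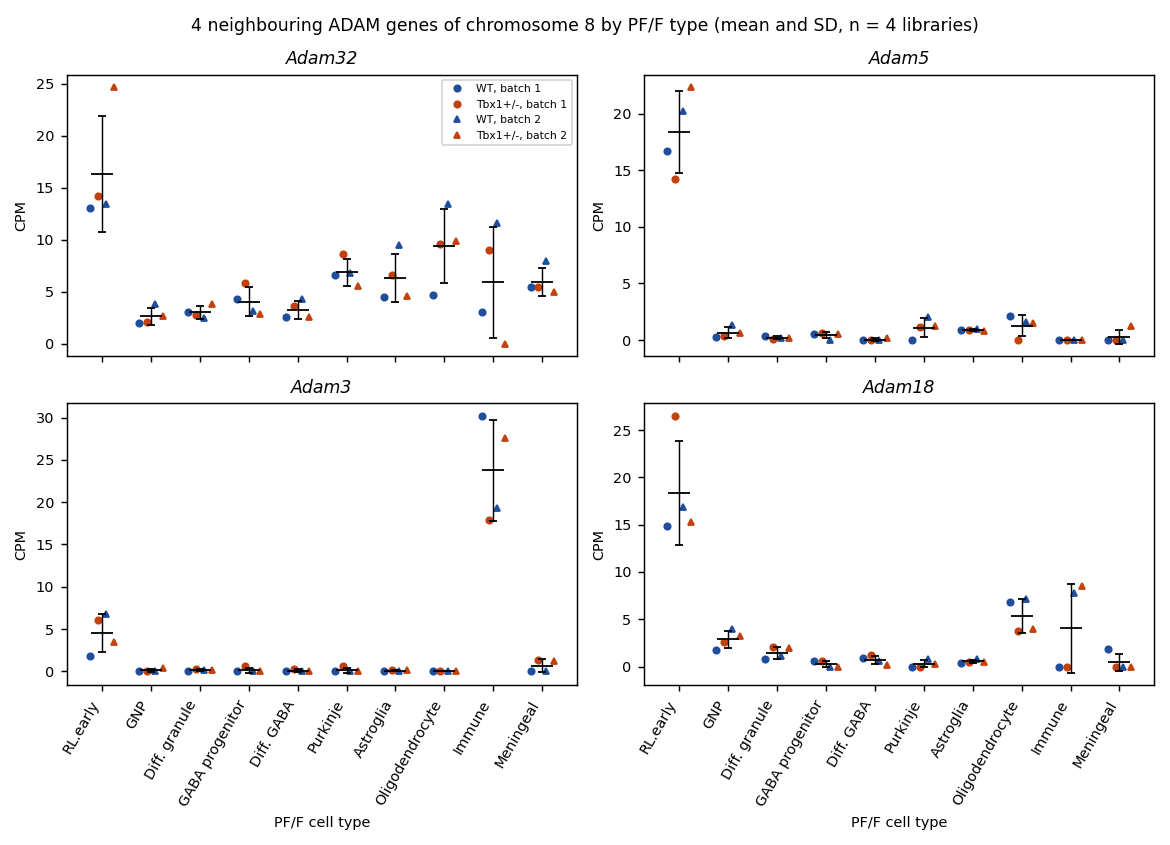
Levels in CPM of the neighbouring genes Adam32, Adam5, Adam3 and Adam18 in 10 PF/F types, without the small endothelial, pericyte, progenitor and GABA interneuron types; each point is a library (blue WT, orange Tbx1+/-, circles batch 1, triangles batch 2), and bars give the mean and SD of 4 libraries. Adam5 and Adam18 stand at 14.3 CPM or more in RL.early, and Adam3 at 17.9 to 30.2 CPM in immune nuclei.

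Compared between tissues over all deposited barcodes, 45 members could be tested with edgeR's quasi-likelihood test, and 32 were called (Benjamini-Hochberg adjusted p under 0.05 over all genes and more than 1.5-fold), 71.1% against 58.3% of all 22505 genes tested. Of the members 25 (55.6%, against 29.5% of all genes) were higher in PTB and 7 (15.6%, against 28.9%) higher in PF/F, and the median log2 difference was 0.80, against 0.00167 over all genes. Sums over all barcodes cannot tell more nuclei of a type from more transcripts per nucleus. Taken singly, each called member had an exact permutation p (two-sided, 4 against 4 libraries) of 0.0286. This is the smallest p when the 8 libraries are permuted freely, which takes no account of batch or of mice that the tissues may share. With a term for batch (the replicate block) edgeR called 33 members.

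By role the counts were as follows, with no test between roles and the shares over all genes given above as the background. Of the 3 brain ADAMs without protease activity, Adam11 and Adam22 were higher in PF/F, and both COMP-cleaving enzymes were higher in PTB. Of the 9 catalytic membrane ADAMs 8 were higher in PTB, of the 7 hyalectan-cleaving enzymes 5, of the 3 procollagen N-proteinases 2 and of the 5 ADAMTS-like genes 3, none of these with a member called higher in PF/F. Adamts13, the protease of von Willebrand factor, was higher in PTB at under 1 CPM. The 6 other ADAMTS divided into 2 higher in PTB (Adamts10 and Adamts17), 2 higher in PF/F (Adamts18 and Adamts19) and 2 not called. Of the 15 testis ADAMs 9 could be tested: Adam3 and Adam4 were higher in PTB, and Adam2, Adam18 and Adam34 in PF/F, each at 2.70 CPM or less in both tissues.

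Adam33 had the largest difference towards bone. It was at 16.1, 15.3, 13.3 and 10.4 CPM in the PTB libraries and at 0.410, 0.755, 0.671 and 0.462 CPM in the PF/F libraries (WT and Tbx1+/- of batch 1, then of batch 2), a log2 difference of 4.55 ± 0.24 (SE; edgeR adjusted p = 7.00e-07). Adamts9 was at 314.6 to 355.3 CPM in PTB and at 24.9 to 30.7 CPM in PF/F, a log2 difference of 3.56 ± 0.09 (edgeR adjusted p = 2.76e-08). Adamts12 differed by 3.40 ± 0.12 on the log2 scale (edgeR adjusted p = 8.07e-08). The libraries of the tissues did not overlap for any of these 3. Further log2 differences above 2 belonged to Adam28 (2.88 ± 0.56, and 0.88 and not called in annotated nuclei alone), Adamtsl5 (2.79), Adamts2 (2.74), Adamts5 (2.69), Adam3 (2.67), Adam12 (2.55), Adamts14 (2.40) and Adamts10 (2.24).

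Towards brain the largest difference was that of Adamts18, at 35.9 to 50.4 CPM in PTB and 194.1 to 231.3 CPM in PF/F, a log2 difference of -2.34 ± 0.11 (edgeR adjusted p = 4.11e-07). Adam22 was at 77.1 to 99.4 CPM in PTB and 245.0 to 312.7 CPM in PF/F, a log2 difference of -1.67 ± 0.11 (edgeR adjusted p = 2.12e-06). Adam11 (-0.86) and Adamts19 (-0.72) followed among members above 5 CPM. Adam23, at 90.3 ± 11.7 CPM in PTB and 113 CPM in PF/F, was not called (log2 difference -0.36 ± 0.13), nor were Adam9 (0.10 ± 0.08) and Adamts6 (0.25 ± 0.09).

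The nuclei that were summed mattered for a few members, because 32101 of the PTB barcodes and 9721 of the PF/F barcodes carry no annotation. The paper removed low-quality nuclei before its analysis. It kept as many PF/F nuclei as are annotated, so the PF/F barcodes without annotation are those it left out. PTB has fewer annotated nuclei than the paper kept, so its barcodes without annotation hold both removed barcodes and kept nuclei. In annotated nuclei alone Adamts20 was called higher in PF/F (log2 difference -1.22, edgeR adjusted p = 1.62e-05), as was Adamts16 (-0.80, adjusted p = 0.0294), which over all barcodes stood at 0.18 and was not called. Adam7 turned from 0.84 over all barcodes, not called, to -2.73 (adjusted p = 0.000105), with 210 of its 219 PTB UMIs in barcodes without annotation, and over all barcodes it was called higher in PTB with the replicate block (0.76, adjusted p = 0.0370). Adamts3 (0.88) and Adamts6 (0.62) were called higher in PTB in annotated nuclei. Adamts1 (0.63) was not called without the WT (0.40) or Tbx1+/- (0.54) PTB library of batch 1, nor without the WT PF/F library of batch 1 (0.58) or batch 2 (0.57). Adamts15 (0.80) was not called without the Tbx1+/- PTB library of batch 1 (0.58) or the WT PF/F library of batch 2 (0.72).

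**Figure D4:**
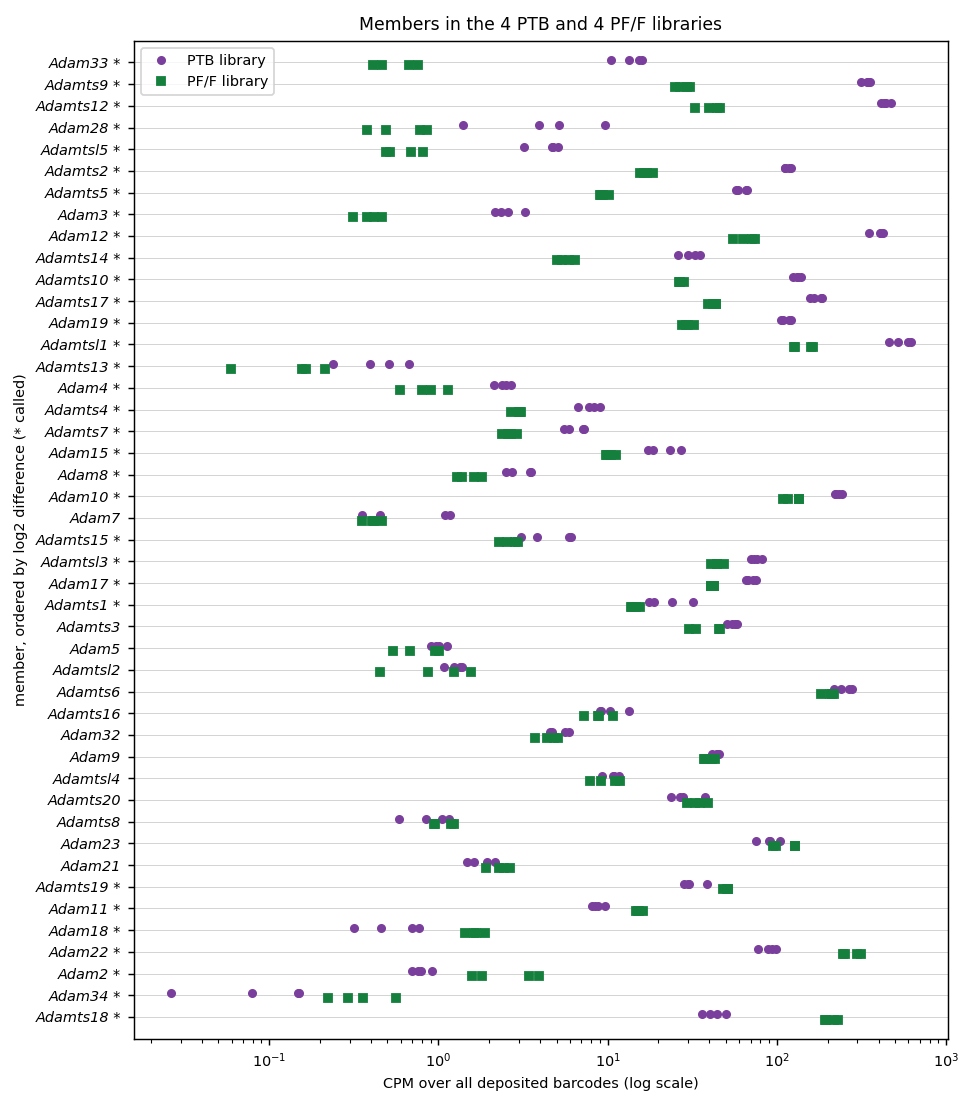
Level in CPM (log scale) over all deposited barcodes of the 45 tested members in the 4 PTB libraries (purple circles) and the 4 PF/F libraries (green squares), ordered by log2 difference; an asterisk marks members called. Adam33 at the top is at 10.4 to 16.1 CPM in PTB and under 1 CPM in PF/F, and Adamts18 at the bottom is higher in all 4 PF/F libraries.

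To set genes side by side, levels were also divided by gene span, since intronic reads were counted. Whether span removes the effect of gene length on these 3′ counts was not tested. The highest PTB level per kilobase was that of Adamts10, at 4.47 CPM per kb over its 29.58 kb, followed by Adamts1 at 2.48 and Adam10 at 2.27 CPM per kb, with Adamts9 at 1.98 and Adamts12 at 1.55 CPM per kb. In PF/F Adamts1 led at 1.56 CPM per kb, followed by Adamts18 at 1.39 and Adam10 at 1.23 CPM per kb.

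Substrates, inhibitors and partners were taken from a list of 42 genes, of which 37 (88.1%, against 58.3% of all genes) were called. Of these 29 (69.0% of those tested, against 29.5% of all genes) were higher in PTB and 8 (19.0%, against 28.9%) higher in PF/F. The list was set by role and includes matrix genes of cartilage and bone. The 4 procollagen genes were all higher in PTB, led by Col1a1 with a log2 difference of 8.46 ± 0.34 (edgeR adjusted p = 1.66e-07), and Acan differed by 7.10 ± 0.22 (edgeR adjusted p = 5.55e-08). The brain hyalectans Bcan (-2.07) and Ncan (-2.90) were higher in PF/F, and Vcan was not called (-0.34 ± 0.26). Of the tissue inhibitors of metalloproteinases, Timp1 (4.67) and Timp2 (2.04) were higher in PTB and Timp4 (-4.74) in PF/F. Timp3, the inhibitor that acts on ADAMs and ADAMTS enzymes, was at 196 ± 10.0 CPM in PTB and 195 CPM in PF/F, a log2 difference of -0.03 ± 0.08. Both propeptide convertases, Furin (1.03) and Pcsk6 (2.50), which activate these enzymes, were higher in PTB, Pcsk6 at 767 ± 52.2 CPM in matured osteoblasts/osteocytes. Of 9 genes for membrane proteins that ADAMs shed, 6 were higher in PTB, such as Tnfsf11 (7.77), Tnf (3.39) and Notch2 (1.67), and 1 in PF/F, the neuronal growth factor gene Nrg1 (-4.07 ± 0.27).

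Whether loss of a Tbx1 copy changed these genes was asked in 7 PTB classes (the 6 CP types as 1 class and the 4 CT types as another) and in the 16 PF/F types. No member was called in PTB by edgeR in 219 tests of a member in a class (5 had an unadjusted p under 0.05, against 1.54% of all tests), nor by DESeq2 (2), and of all 95894 tests of a gene in a class 0.0% were called. In PF/F no member was called by edgeR in 333 tests (9 with an unadjusted p under 0.05, against 1.32% of all tests) nor by DESeq2 (0), where 0.000598% of all 167207 tests were called, a single gene in Purkinje cells (0.00778% of the genes tested there). No partner gene was called either, in 237 tests in PTB (4 with an unadjusted p under 0.05 by edgeR and 1 by DESeq2) and 348 in PF/F (4 by edgeR and 0 by DESeq2). The median size of a member's log2 difference was 0.12 in PTB and 0.149 in PF/F. The median SE was 0.25 and 0.287, so differences of this size were not detectable. These fits had no batch term, so spread between batches counted as spread between replicates. Over all tests an unadjusted p under 0.05 was rarer here than with the batch term below, so these fits were the less sensitive. With the replicate block edgeR gave 12 member tests in PTB with an unadjusted p under 0.05 (5.48%, against 4.37% of all tests). In PF/F it gave 23 (6.91%, against 4.28%). Partner genes had 21 in PTB (8.86%) and 12 in PF/F (3.45%). It called no member in PTB and 1 in PF/F, with a median SE of 0.188 and 0.256.

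The members with the smallest p moved the same way in both batches, which follows largely from their choice, and none passed the adjustment. In osteoclasts Adamts6 was at 71.0 and 65.5 CPM in WT and at 96.3 and 98.0 CPM in Tbx1+/-, a log2 difference of 0.51 ± 0.14 (edgeR adjusted p = 1.00). Adamts3 in osteoclasts was at 12.5 and 16.3 CPM in WT and at 24.6 and 23.6 CPM in Tbx1+/- (0.74 ± 0.24, edgeR adjusted p = 1.00). Without the 8% of nuclei with most UMIs this log2 difference was 0.05 ± 0.39. Osteoclasts were the lowest PTB type for both genes, with means of 82.7 CPM for Adamts6 and 19.25 CPM for Adamts3. The part of free RNA from other cells in these levels was not tested. Adamts9 in matured chondrocytes was at 177 and 240 CPM in WT and at 89.9 and 123 CPM in Tbx1+/- (-0.88 ± 0.30, edgeR adjusted p = 1.00). In each of these 3 the genotypes did not overlap, which follows largely from the choice by p. Over all PTB barcodes 8.58% of genes were higher in both Tbx1+/- libraries and 7.86% in both WT libraries. The share within these classes was not counted.

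In PF/F Adam18 in differentiated granule neurons was at 0.766 and 1.07 CPM in WT and at 2.09 and 1.91 CPM in Tbx1+/- (1.13 ± 0.32, edgeR adjusted p = 1.00). Adamtsl3 in differentiated GABA interneurons differed by 0.73 ± 0.24 and Adamts17 in meningeal nuclei by -0.85 ± 0.36, both with an edgeR adjusted p of 1.00. All 3 separated the genotypes without overlap, at levels of 43.6 CPM or less, which again follows largely from the choice by p. Over all PF/F barcodes 6.03% of genes were higher in both Tbx1+/- libraries and 9.36% in both WT libraries. The share within these types was not counted.

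Meningeal Adamtsl3 was the exception that depended on the batch term. It was at 367.3 CPM in WT and 197.5 CPM in Tbx1+/- of batch 1 and at 138.6 and 65.7 CPM in batch 2, lower in Tbx1+/- within both batches while the WT library of batch 2 lay below the Tbx1+/- library of batch 1. Without the batch its log2 difference was -0.95 ± 0.48 (edgeR adjusted p = 1.00), and with the replicate block it was -0.96 ± 0.19 (edgeR adjusted p = 0.000728), in a fit that called 24 of 10002 genes (0.24%). Without the WT library of batch 1 the difference was -0.05. The meningeal type held 123 to 227 nuclei per library.

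**Figure D5:**
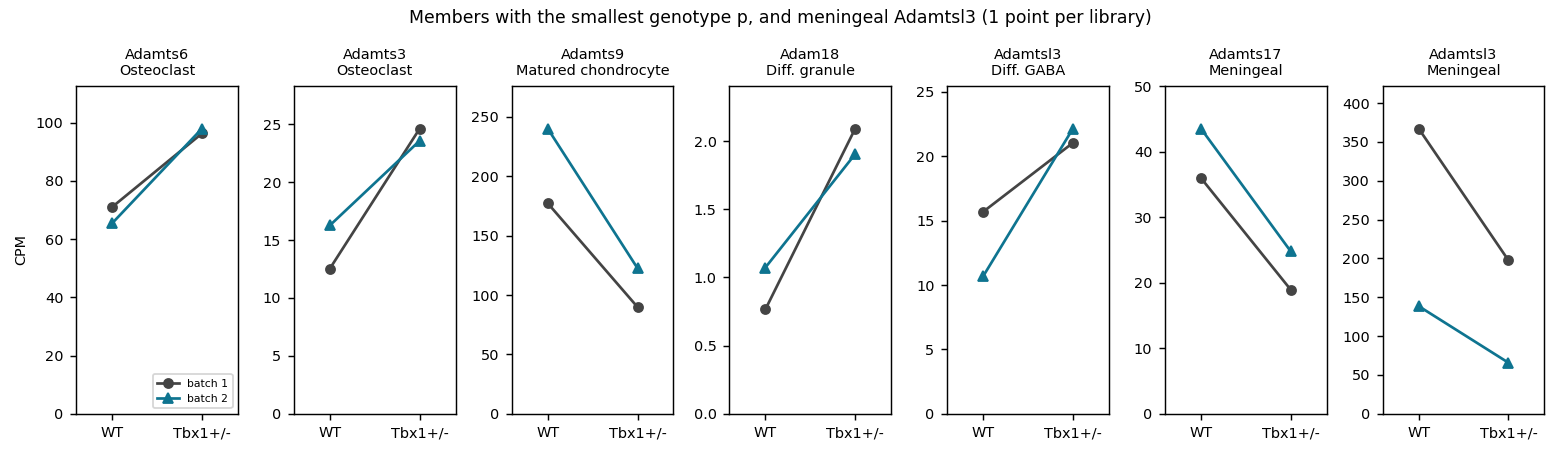
Level in CPM of the 3 members with the smallest genotype p in each tissue and of meningeal Adamtsl3, in WT and Tbx1+/- libraries; each point is a library and each line joins the libraries of a batch (circles batch 1, triangles batch 2). All lines of a panel run in the same direction, and in meningeal Adamtsl3 the batches are farther apart than the genotypes.

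Batch separated libraries more often than genotype did. In PF/F 23 of 41 members with at least 100 UMIs were higher in both batch 2 libraries than in both batch 1 libraries, against 32.9% of all genes, and 4 were lower, against 33.4%. In PTB 15 of 44 members were higher in batch 2, against 34.6% of genes, and 14 lower, against 23.0%. The Tbx1+/- libraries were both above both WT libraries for 3 members in PTB (8.58% of genes) and 4 in PF/F (6.03%), and both below for 4 (7.86%) and 5 (9.36%). Depth moved with the batch, as annotated nuclei had a median of 3853 and 4140 UMIs in batch 1 and of 4758 and 4700.5 UMIs in batch 2 of PTB, and of 2902 and 2610 against 3503 and 3405 UMIs in PF/F, and its part in these orders was not tested.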

How the data were processed

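Nuclei of both tissues were profiled by droplet sequencing of 3′ ends. The authors ran Cell Ranger 7.0.0 in intron mode on mm10 and deposited raw UMI counts per gene and barcode, without their SoupX correction for free RNA, together with annotations of nuclei by type, which were used as given. UMIs were summed per library over each type (Python 3.11.15, pandas 2.3.3) and given per 1000000 UMIs. Sums were compared in R 4.3.3 by the quasi-likelihood test of edgeR 4.0.16, after its default expression filter and TMM scaling, with DESeq2 1.42.0 as an alternative, at an adjusted p of 0.05 and 1.5-fold. Genotypes were compared in 7 classes or 16 types. Tissues were compared over all barcodes of 8 libraries, also those the paper left out, with genotype as a covariate. Both kinds of fit, and an interaction of genotype with tissue added later, were tested on simulated data. The simulated counts held no batch effect, and the planted changes were larger than the median genotype differences of members. They therefore do not show how the fits perform on libraries paired by batch.

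The study describes separate batches of animals for each genotype, and the replicate numbers were taken as these batches. WT and Tbx1+/- libraries of a batch deviated from their genotype's mean together, with a correlation across genes of 0.470 in PTB and 0.541 in PF/F over annotated nuclei and of 0.0194 to 0.506 within PF/F types, so the numbers pair the libraries. The main fits had no batch term, so spread between batches counted as spread between replicates. SE values were derived from each log2 difference and its F statistic. Genes were adjusted within each fit, and p-values measure the spread between pooled libraries only. Levels of 2 PF/F types are not reported here. Doublets were not called. Leaving out the 8% of nuclei with most UMIs served as an alternative.

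Members were named where their mean reached 20 CPM in a type with 50 nuclei in each library, or 60 CPM in a smaller one, where they were called, or for the 3 smallest genotype p of a tissue. Adam5, Adam7, Adam32 and Adamts8 met none of these in the main fits and were added by role or after their values were seen. Adam4, Adam8, Adam28, Adamts4, Adamts7 and Adamts13 met only the rule of a call, between tissues. Any levels by type given for them were added in the same way. The members, the lists and the tests were chosen with earlier results of these data known. Positions are from GENCODE vM21 on GRCm38, the build of mm10, and 26 members had an upstream window in the RefSeq table. Floors of 3 counts cover counting error only.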

Additional observations from a re-analysis of the deposited data

Results flagged for a closer look

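Among 148 sets of 4 libraries of a tissue tested for a library far from the others, 1 was found where chance gives about 1 in 20: Adamtsl3 in CT2 was at 508.9 CPM in the Tbx1+/- PTB library of batch 1 and at 404.0 to 416.4 CPM in the other 3.

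A signal lay in barcodes that no type-level comparison used. Adam28 was at 8.95 CPM (mean of 4 libraries) in PTB barcodes without annotation, where the highest annotated type was CP6 at 3.04 CPM, and in each library it was above CP6.

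The genotype difference of members was also compared between tissues over all barcodes, with an interaction term added after the data were seen. edgeR called 0 of 48 members (0 with an unadjusted p under 0.05), and 0 of 23420 genes (175 with an unadjusted p under 0.05). The fit had no term for batch or for mice that the tissues may share. With so few small p over all genes it was conservative, so the lack of calls does not show equal differences. The smallest p among members was that of Adamtsl5, with log2 differences of 0.60 in PF/F and -0.18 in PTB (edgeR adjusted p of the interaction = 1.00).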

How the results depend on the processing

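Counts of called members held under every alternative in PTB genotype tests (0 each) and in the tissue comparison (31 to 35 for members, 35 to 38 for partner genes). In PF/F genotype tests the replicate block gave 1 member, meningeal Adamtsl3, and leaving out a library gave 0 to 1, again Adamtsl3 (log2 differences of -1.96 without the Tbx1+/- library of batch 1 and -1.50 without the WT library of batch 2). Apart from that call, the replicate block changed no count of called members or partner genes beyond 1.5 times, and over all genes it raised the called tests from 0 to 49 in PTB and from 1 to 60 in PF/F (DESeq2 0 and 2). Partner genes called in PTB numbered 0 to 4 when a library was left out: without the WT library of batch 1 the collagens Col1a1, Col1a2, Col2a1 and Col3a1 in osteoclasts (4), and without the WT library of batch 2 Col1a1 in 2 classes and Col1a2 in 1 (3). A library left alone in its group borrows the spread of the others. The tissue difference turned sign in annotated nuclei for Adam7 (-2.73), Adam9 (-0.024) and Adamts16 (-0.80), and for Adamtsl4 it ran from -0.047 to 0.19 over the libraries left out. The causes were not tested. Of the 58 levels of members in their highest types, 4 moved by over 1 SD without the nuclei of most UMIs (leaving out 1 of 4 libraries cannot move a mean that far, so it says nothing of their stability): in PF/F immune nuclei Adam17 (127 CPM), Adam3 (30.0 CPM) and Adam9 (93.6 CPM), and in astroglia Adamts5 (38.8 CPM).

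Free RNA could not be removed from the deposited counts. As a lower bound, the level outside the type was subtracted from each level. Most levels moved by over 1 SD under this or the former alternative (39 of 58), among them Adam15 in matured chondrocytes (to 0.889 CPM), Adam17 in CP2 (to 12.9 CPM) and Adam10 in matured osteoblasts/osteocytes (to 195.0 CPM). The highest type exceeded the rest of its library in all 4 libraries for each member but Adam15 (22.4 against 21.5 CPM in matured chondrocytes) and Adamtsl4 in CT1 in PTB and Adamts16 in pericytes, which did so in 3. This follows largely from the choice of the type by its mean in the same libraries, so it says little of free RNA. Depth limits small types: 3 counts were 44.4 to 86.1 CPM in pericytes.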
